A study of Mus musculus with 8 samples.

Results

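The genes described here encode the nuclear subunits of the mitochondrial respiratory chain and of ATP synthase, measured by RNA sequencing of mouse liver with and without hepatic FOXO1. They were chosen by symbol among protein-coding genes: the Nduf, Sdh, Uqcr, Cox and Atp5 subunit names together with Cyc1 and Cycs. The table of expression values held 85 of them among 25690 genes. By complex these were 35 genes of complex I, 4 of complex II, 9 of complex III, 19 of complex IV, 17 of complex V and the gene of cytochrome c. Ndufa4 and its relative Ndufa4l2 were counted with complex IV. By symbol, Cox7a2l was counted with complex IV and Atp5s with complex V, though neither is a core subunit. Cox4i1 had no row in the table and is not analysed here.

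The respiratory chain passes electrons from NADH through complex I, or from succinate through complex II, by way of coenzyme Q to complex III, then by cytochrome c to complex IV, where oxygen is reduced. Complexes I, III and IV pump protons across the inner mitochondrial membrane, and complex V (ATP synthase) uses the gradient to make ATP. Each complex except complex II combines nuclear-encoded subunits with a few subunits encoded by the mitochondrial genome. In liver this system supplies ATP for glucose and urea synthesis and takes up the electrons of fatty acid oxidation. FOXO1 is a transcription factor that is switched off by insulin signalling.

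The series compared liver tissue of 4 wildtype control mice (libraries 1, 3, 10 and 12) with liver tissue of 4 mice with hepatic FOXO1 knockout (libraries 3, 9, 10 and 11). The sources used here do not give strain, sex, age, feeding state or the way FOXO1 was removed, and nothing in the labels says that libraries with the same number belong together. The values are FPKM, fragments counted per gene relative to transcript length and to all mapped fragments. They were compared on the log2(FPKM + 1) scale with limma, a linear model with moderated variances fitted across the 10250 genes that averaged 1 FPKM or more. Values of a gene are listed below in the order of the library numbers just given.

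Foxo1 checked the labels. Its level lay between 3.01 and 3.81 FPKM in the wildtype libraries and between 0.212 and 0.375 FPKM in the knockout libraries, a log2 change of -1.78 (SE 0.09, limma adjusted p = 3.62e-05). At FPKM this low the log2(FPKM + 1) scale understates the change. Relative depth, read from the size of the smallest values, ran from 0.889 to 1.16 times that of wildtype library 1. Summed markers of other cell types moved with some libraries: leukocyte markers summed to 2.42 to 6.18 FPKM in wildtype and to 58.2 FPKM in knockout 3 and 137 FPKM in knockout 11, with S100a8 and S100a9, genes of neutrophils, making up most of it. The other 2 knockout libraries stood at 4.5 and 7.66 FPKM. Ly6g was at 0.218 and 0.613 FPKM in knockout 3 and 11 and at 0 elsewhere. Ptprc, of the same list, did not follow. It lay between 0.511 and 0.686 FPKM in wildtype and at 0.458 and 0.697 FPKM in knockout 3 and 11. Sinusoidal endothelial markers summed to 49.4 to 65.3 FPKM in wildtype and 27.3 to 49.98 FPKM in knockout, and 1 of 5 tested passed as lower. Hepatocyte markers summed to 40376 to 46796 FPKM in wildtype and 17875 to 49017 FPKM in knockout, where the lowest sum was that of knockout 10, in which Alb is listed at 0. Of the 7 tested, 1 passed as higher and 0 as lower, and the genes went different ways. Fgb was at 7808 and 4535 FPKM in knockout 3 and 11, above its wildtype range of 2390 to 2776 FPKM. Ttr was at 3462 and 5180 FPKM there, below its wildtype range of 5379 to 6619 FPKM. Stellate cell markers summed to 48.7 to 58.1 FPKM in wildtype and to 24.5, 57.3, 40.4 and 28.9 FPKM in knockout 3, 9, 10 and 11. The ranges in wildtype and knockout were 11.3 to 16.7 and 15.6 to 24.7 FPKM for cholangiocyte markers, 1429 to 5779 and 1065 to 3557 FPKM for erythroid markers, and 67.5 to 90.2 and 55.2 to 89.5 FPKM for Kupffer cell markers, and none of the tested genes of these 4 lists passed. The part of these cell type differences in the results below was not tested. In tissue RNA, fewer cells of a type and less RNA per cell cannot be told apart.

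Transcripts of the nuclear respiratory chain were lower in the knockout livers across all 5 complexes. Of the 85 genes, 79 had a mean of at least 1 FPKM and were tested. The 6 others, all of complex IV, were at or near 0. Of the 79 tested genes, 66 fell in the knockout and none rose (limma, adjusted p under 0.05), against 11.7% of all 10250 tested genes that fell and 2.7% that rose. The estimated log2 change was negative for all 79, with a median of -0.60 beside -0.08 for all tested genes. In 71 of the 79 every knockout library lay below every wildtype library, as it did for 16.5% of all tested genes, and in none did every knockout library lie above, as it did for 4.83%. Together the 85 genes took 3.57%, 3.23%, 3.13% and 3.42% of the summed FPKM in the wildtype libraries and 1.81%, 2.1%, 2.49% and 2.17% in the knockout libraries. With 1 library left out at a time, between 45 and 66 of the genes passed as lower, the fewest without wildtype 1. Lower calls over all 10250 tested genes varied too: 1195 with all libraries, 599 without wildtype 1 and 1294 without knockout 9. Without the 2 knockout libraries that were high in S100a8 and S100a9, 50 passed, beside 656 of all 10250 tested genes.

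The size of this fall depended on how libraries were put on a common scale and on transcript length. Other protein-coding genes with principal transcripts of up to 1000 bases also had a negative median, -0.35, and 40.8% of these 674 genes passed as lower. The respiratory chain genes are short: their principal transcripts had a median of 875 bases beside 2763 bases for all tested genes that have one. Over all genes, 81.2% of calls were lower in the knockout with the values as deposited, 59.8% after scaling by median ratios, 58.1% after quantile normalization and 51.1% once the length trend of each library was removed. Under those settings 49, 38 and 26 of the 79 genes passed as lower, with median log2 changes of -0.50, -0.33 and -0.29. The background of lower calls was 7.02%, 6.36% and 4.91% of the genes tested in each. The sign stayed negative in 78, 75 and 74 genes, in that order, and turned positive for Ndufa4l2 in all 3. Both readings, as deposited and with the length trend removed, are therefore given for each complex.

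**Figure D1:**
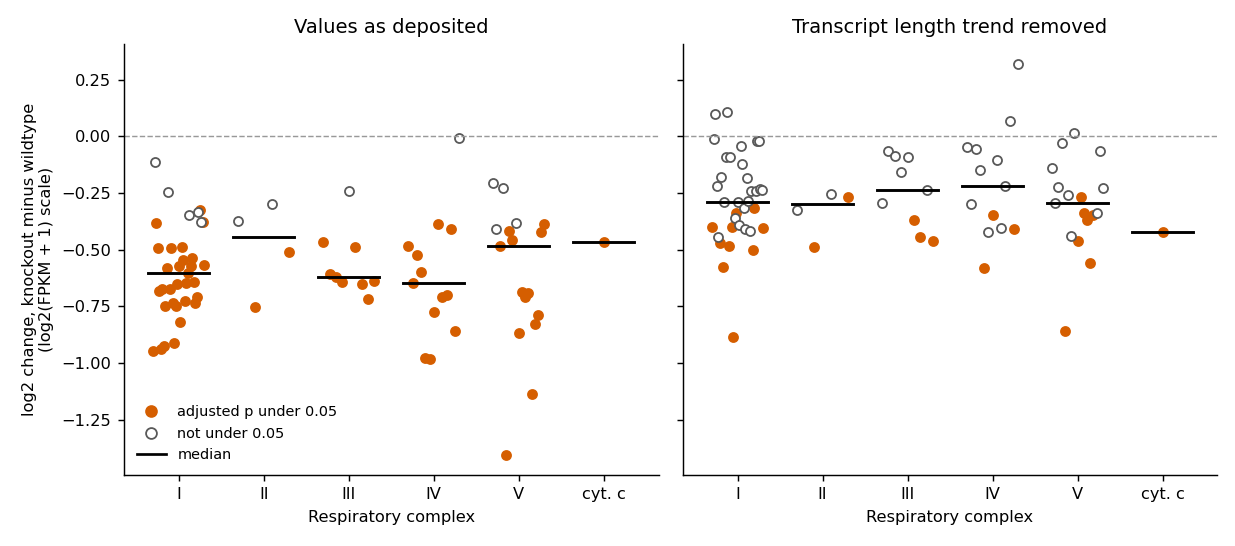
Log2 change (knockout minus wildtype, log2(FPKM + 1) scale) of the 79 tested genes by complex, with the values as deposited (left) and after removal of each library's trend with principal transcript length (right). Each point is a gene, filled where its limma adjusted p was under 0.05, and bars are medians: 66 points are filled on the left, all below 0, and 26 on the right.

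Complex I, the NADH dehydrogenase that takes in electrons at the start of the chain, had 30 of its 35 subunit genes lower and a median log2 change of -0.60. Its accessory subunits, which surround and stabilise the catalytic core, included the largest falls. Ndufa1, an accessory subunit of the membrane arm, stood at 406, 346, 319 and 394 FPKM in wildtype and at 176, 178, 208 and 194 FPKM in knockout. The groups did not overlap, and its log2 change was -0.95 (SE 0.11, limma adjusted p = 0.00276). Ndufa5, an accessory subunit of the matrix arm, gave 330, 301, 294 and 321 FPKM in wildtype against 146, 146, 177 and 188 FPKM in knockout, a log2 change of -0.92 (SE 0.11, limma adjusted p = 0.00305). Its highest knockout library was far below its lowest wildtype library. Ndufa2, also of the matrix arm, fell from 193 ± 18 to 101 ± 12.9 FPKM (mean ± SD, n = 4 each), with a limma adjusted p of 0.00306.

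Ndufb2, a subunit of the far end of the membrane arm, gave 223, 218, 182 and 197 FPKM in wildtype and 88.9, 103, 127 and 119 FPKM in knockout, a log2 change of -0.91 (SE 0.13, limma adjusted p = 0.00408). Ndufs4, an accessory subunit beside the NADH-binding module, fell from 65.0, 64.5, 58.2 and 64.9 FPKM in wildtype to 36.1, 38.1, 40.5 and 46.1 FPKM in knockout (log2 change -0.64, SE 0.10, limma adjusted p = 0.00495). Neither gene had overlapping groups. In all, 26 of the 28 accessory subunit genes were lower, with a median log2 change of -0.66. Ndufa10, one of the 2 that were not, had 71.4, 67.2, 63.8 and 75.7 FPKM in wildtype and 53.4, 66.7, 75.3 and 62.4 FPKM in knockout, and its groups overlapped (log2 change -0.12, SE 0.12, limma adjusted p = 0.55). The other was Ndufa8, with a log2 change of -0.24 and a limma adjusted p of 0.182.

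The 7 nuclear core subunits of complex I, which carry its flavin and iron-sulfur centres, had smaller changes. Of these, 4 passed as lower, and the median log2 change of all 7 was -0.38. Ndufs1, Ndufs7 and Ndufv1 did not pass, with log2 changes of -0.35, -0.33 and -0.38 and limma adjusted p of 0.0654, 0.0744 and 0.12. Core subunits also have longer transcripts, a median of 1623 bases against 747.5 bases for the accessory ones. After removal of the length trend, the medians were -0.24 for core and -0.32 for accessory genes, and 10 accessory genes and no core gene passed as lower. The difference between core and accessory genes was not tested.

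Complex II, succinate dehydrogenase, is the link to the citric acid cycle and has no mitochondrially encoded subunit. It had 2 of its 4 genes lower. Sdhb, the iron-sulfur subunit, gave 266, 248, 261 and 281 FPKM in wildtype and 128, 158, 193 and 151 FPKM in knockout, a log2 change of -0.75 (SE 0.12, limma adjusted p = 0.00636). Sdhd, a membrane anchor, gave 139, 137, 130 and 138 FPKM in wildtype and 95.8, 90.1, 98.8 and 96.1 FPKM in knockout (log2 change -0.51, SE 0.08, limma adjusted p = 0.00495). For both, all knockout libraries were below all wildtype libraries.

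The other 2 genes of complex II did not pass. Sdha, the flavoprotein that oxidises succinate, gave 102, 91.7, 97.7 and 127 FPKM in wildtype and 77.9, 86.0, 99.5 and 60.7 FPKM in knockout, and knockout 10 lay within the wildtype range (log2 change -0.38, SE 0.16, limma adjusted p = 0.146). Sdhc, the other membrane anchor, gave 203, 176, 189 and 214 FPKM in wildtype and 144, 145, 192 and 156 FPKM in knockout (log2 change -0.30, SE 0.12, limma adjusted p = 0.119). Knockout 10 again lay within the wildtype range, and without it Sdhc passed as lower (limma adjusted p = 0.0381). Sdha and Sdhc have transcripts of 2900 and 3171 bases, Sdhb and Sdhd of 1142 and 1231 bases. With the length trend removed, Sdhb and Sdhd still passed as lower (log2 changes of -0.49 and -0.27), but Sdhd passed in none of the 8 refits that left out 1 library, and Sdhb in 4 of them.

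Complex III, which passes electrons from reduced coenzyme Q to cytochrome c, had 8 of 9 genes lower. Uqcrfs1 encodes the Rieske iron-sulfur protein, a redox subunit. It gave 154, 150, 142 and 160 FPKM in wildtype and 86.1, 93.8, 104 and 101 FPKM in knockout, a log2 change of -0.65 (SE 0.09, limma adjusted p = 0.00408). Cyc1, the cytochrome c1 subunit, fell from 160 ± 9.84 to 116 ± 14.3 FPKM (mean ± SD, n = 4 each, limma adjusted p = 0.0198), a call that was lost without wildtype 1 or without wildtype 12.

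The 5 small subunits of complex III all passed as lower, with a median log2 change of -0.64. Uqcrh, the acidic hinge protein, gave 504, 493, 455 and 534 FPKM in wildtype and 274, 281, 339 and 316 FPKM in knockout (log2 change -0.72, SE 0.10, limma adjusted p = 0.00441). Uqcrb fell from 666 ± 51.0 to 427 ± 43.9 FPKM (limma adjusted p = 0.00648) and Uqcr10 from 444 ± 39.2 to 292 ± 36.0 FPKM (limma adjusted p = 0.0105; mean ± SD, n = 4 each). These small-subunit genes had non-overlapping groups. Of the 2 large core proteins, Uqcrc2 was lower (log2 change -0.49, limma adjusted p = 0.0162) and Uqcrc1 was not (-0.24, limma adjusted p = 0.214). With the length trend removed, 3 of the 9 passed: Uqcrfs1 (-0.44), Uqcrq (-0.46) and Uqcrc2 (-0.37). The call for Uqcrq depends on which principal transcript is taken: with 1521 bases its change was -0.46 (limma adjusted p = 0.0449), and with 405 bases it was -0.12 (limma adjusted p = 0.373). The log2 changes of Uqcrh, Uqcrb and Uqcr10 after removal with the longest principal transcript were -0.24, -0.16 and -0.07.

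Cycs, the cytochrome c that shuttles electrons from complex III to complex IV, gave 42.1, 45.1, 39.6 and 45.2 FPKM in wildtype and 27.9, 35.3, 29.7 and 30.9 FPKM in knockout. It was lower by a log2 change of -0.47 (SE 0.10, limma adjusted p = 0.0135), without overlap. Its transcript of 3123 bases is long for a respiratory chain gene, and the change was -0.42 after removal of the length trend (limma adjusted p = 0.0228).

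Complex IV, cytochrome c oxidase, had 12 of 13 tested genes lower, with a median log2 change of -0.65. Its principal transcripts are short, with a median of 645 bases, and 3 of its genes passed as lower after removal of the length trend. Cox6c, a small membrane subunit, gave 1218, 1122, 989 and 1077 FPKM in wildtype and 447, 578, 608 and 613 FPKM in knockout (log2 change -0.98, SE 0.13, limma adjusted p = 0.00361). Ndufa4, found with complex I at first and now assigned to complex IV, gave 1642, 1376, 1314 and 1400 FPKM in wildtype and 656, 738, 888 and 886 FPKM in knockout (log2 change -0.86, SE 0.13, limma adjusted p = 0.00505). Both groups of each gene stood clear of each other. With Cox7a2, they were the 3 that passed after removal of the length trend, at log2 changes of -0.58, -0.41 and -0.35 in the order Cox6c, Ndufa4, Cox7a2. Cox7c, another small subunit, fell from 1183 ± 128 to 726 ± 76.0 FPKM (mean ± SD, n = 4 each, limma adjusted p = 0.00727) and changed by -0.22 after the removal (limma adjusted p = 0.137).

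Several subunits of complex IV exist as isoforms, and the liver or general form carried nearly all of the expression in every pair measured. Cox7a2, the general form of subunit VIIa, gave 310, 323, 275 and 319 FPKM in wildtype and 160, 167, 204 and 185 FPKM in knockout (log2 change -0.78, SE 0.10, limma adjusted p = 0.00394). Its heart and muscle counterpart Cox7a1 stood at 7.23, 7.71, 5.83 and 5.22 FPKM in wildtype and at 2.86, 1.95, 2.46 and 4.05 FPKM in knockout (log2 change -0.98, SE 0.17, limma adjusted p = 0.00867). Both isoforms were lower, without overlap. Cox7a1 was the only muscle-type form that was tested, and its ratio of mean FPKM, 2.30-fold lower, is understated by the log2(FPKM + 1) scale. Of 8 striated muscle markers in the table, none reached a mean of 1 FPKM and Myh6 was listed at 0 throughout. Their sum was at most 0.196 FPKM except in wildtype 3, where it was 5.32 FPKM.

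Cox6a1, the liver form of subunit VIa, fell from 610 ± 45.8 to 428 ± 72.8 FPKM (mean ± SD, n = 4 each, limma adjusted p = 0.0306), a call lost when any wildtype library, knockout 3 or knockout 9 was left out. The muscle form Cox6a2 did not exceed 0.306 FPKM in any library. Cox6b1 fell from 790 ± 52.2 to 524 ± 67.6 FPKM (limma adjusted p = 0.0108), while its testis form Cox6b2 did not exceed 0.958 FPKM. Cox8a gave 554, 491, 473 and 511 FPKM in wildtype and 369, 357, 367 and 436 FPKM in knockout (log2 change -0.41, SE 0.10, limma adjusted p = 0.0266). This call was lost when any wildtype library, knockout 3 or knockout 10 was left out, and the change was 0.07 after removal of the length trend. The muscle form Cox8b did not exceed 0.595 FPKM. Cox4i2 did not exceed 0.406 FPKM, and Cox7b2 and Cox8c were listed at 0 in all 8 libraries. Ndufa4l2, the relative of Ndufa4, gave 1.13, 1.37, 1.51 and 1.58 FPKM in wildtype and 1.66, 0.565, 2.04 and 1.54 FPKM in knockout, and was the only tested gene of complex IV that did not pass (log2 change -0.01, SE 0.19, limma adjusted p = 0.989).

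Complex V, the ATP synthase, held the 2 largest changes of all respiratory chain genes on the log2(FPKM + 1) scale, Atp5e and Atp5k. By ratio of mean FPKM, Cox7a1 of complex IV (2.30-fold lower) exceeded Atp5k (2.19-fold lower). Of the 17 genes of complex V, 13 were lower. Atp5e, the epsilon subunit of the central stalk, gave 746, 705, 573 and 757 FPKM in wildtype and 222, 223, 325 and 284 FPKM in knockout. Mean FPKM was 2.64-fold lower, with a log2 change of -1.41 (SE 0.15, limma adjusted p = 0.00231). Atp5k, subunit e of the membrane sector, gave 876, 752, 587 and 700 FPKM in wildtype and 285, 265, 392 and 390 FPKM in knockout (log2 change -1.14, SE 0.17, limma adjusted p = 0.00495). In both genes the highest knockout library was well under the lowest wildtype library. Atp5k and Atp5e have transcripts of 371 and 421 bases, the first being the shortest of the 79.

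Complex V was divided into its catalytic F1 head and the membrane, stalk and other subunits. Of the 12 genes of the membrane sector, the peripheral stalk and other parts, 11 were lower, with a median log2 change of -0.69. Atp5l, subunit g, gave 578, 526, 445 and 516 FPKM in wildtype and 262, 272, 309 and 318 FPKM in knockout (log2 change -0.83, SE 0.11, limma adjusted p = 0.00394). Atp5h, subunit d of the peripheral stalk, fell from 515 ± 23.6 to 320 ± 30.8 FPKM (limma adjusted p = 0.0044), and Atp5j2, subunit f, from 325 ± 4.82 to 202 ± 23.1 FPKM (limma adjusted p = 0.00441; mean ± SD, n = 4 each). None of these 3 genes had overlapping groups.

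Subunit c, the ring that turns with the protons, is encoded by 3 genes that yield the same mature protein. Atp5g3 fell from 677 ± 82.5 to 372 ± 55.9 FPKM (limma adjusted p = 0.0053) and Atp5g1 from 415 ± 26.9 to 302 ± 26.7 FPKM (limma adjusted p = 0.0152; mean ± SD, n = 4 each). The call for Atp5g1 was lost without wildtype 1. Atp5g2 did not pass (241 ± 20.1 and 185 ± 26.1 FPKM, limma adjusted p = 0.0588). Atp5g3 stood above Atp5g1, and Atp5g1 above Atp5g2, in every library of both groups.

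Of the 5 subunits of the catalytic F1 head and its stalk, 2 were lower, Atp5e and the gamma subunit Atp5c1 (log2 change -0.48, limma adjusted p = 0.0135). The 3 others did not pass. Atp5a1, the alpha subunit, gave 294, 265, 289 and 343 FPKM in wildtype and 237, 254, 284 and 253 FPKM in knockout, and its groups overlapped (log2 change -0.21, SE 0.11, limma adjusted p = 0.224). Atp5b, the catalytic beta subunit and among the most abundant transcripts here, gave 1663, 1440, 1508 and 1397 FPKM in wildtype and 918, 1289, 1243 and 1109 FPKM in knockout (log2 change -0.41, SE 0.13, limma adjusted p = 0.0647). Atp5d, the delta subunit, had a log2 change of -0.23 (limma adjusted p = 0.122). After removal of the length trend 7 of the 17 genes of complex V were lower: Atp5e (-0.86), Atp5k (-0.56), Atp5g3 (-0.46), Atp5j2 (-0.37), Atp5l (-0.35), Atp5j (-0.34) and Atp5h (-0.27). With the shorter of its principal transcripts, of 486 in place of 682 bases, Atp5h did not pass (-0.22, limma adjusted p = 0.0788). The F1 genes have a median length of 1410 bases and the other complex V genes one of 770 bases. Their medians were -0.41 and -0.69 as deposited and -0.22 and -0.34 after the removal, and the difference between them was not tested.

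**Figure D2:**
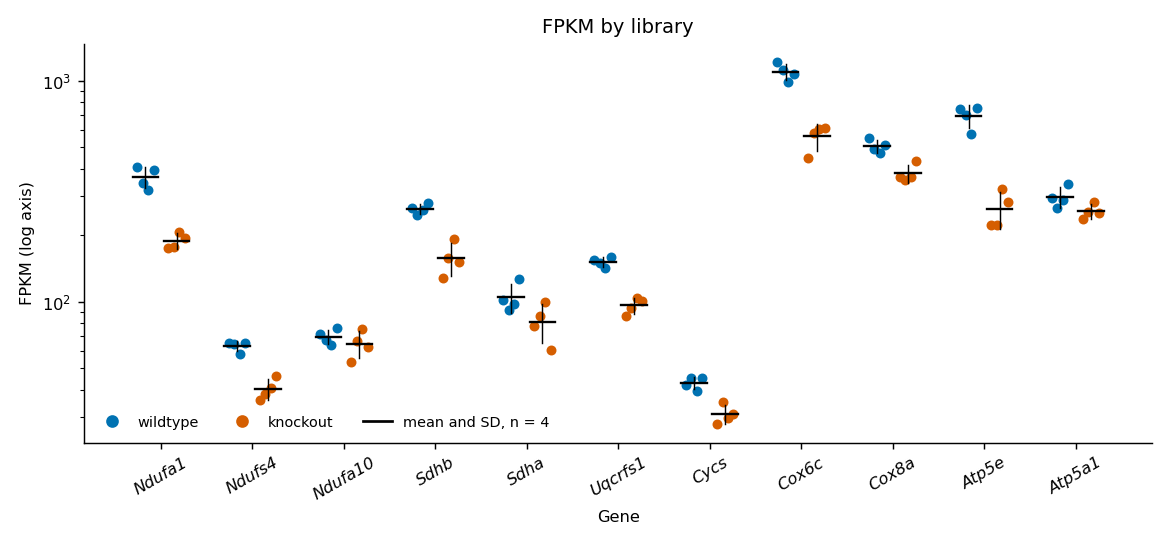
FPKM (log axis) of 11 genes of complexes I to V and cytochrome c in the 4 wildtype and 4 knockout libraries, with the mean and SD of each group. The groups of Ndufa10, Sdha and Atp5a1 overlap, and those of the other 8 genes do not.

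Length was examined in classes. Among respiratory chain genes the median change was more negative in the 3 classes up to 1500 bases than in the 2 longer ones. All 18 genes with up to 600 bases were lower, with a median log2 change of -0.71, and 23 of 27 between 601 and 1000 bases (-0.69). Above that length, 13 of 14 were lower up to 1500 bases (-0.55), 9 of 14 up to 2500 bases (-0.41) and 3 of 6 beyond (-0.42). Of other protein-coding genes in the same 5 classes, 35.7%, 42.4%, 23.2%, 10.2% and 4.64% were lower, with medians of -0.32, -0.35, -0.21, -0.10 and -0.02. In every class the respiratory chain genes had the more negative median. Spearman's rho between length and change was 0.53 across the 79 genes and 0.28 across 9539 other protein-coding genes, a description over genes that share the same 8 libraries.

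Abundance differed as well, since respiratory chain transcripts are plentiful. With transcripts of up to 1000 bases and a mean of at least 100 FPKM, 37 of 38 respiratory chain genes were lower (median -0.71), as were 57.3% of 178 other protein-coding genes (median -0.49). The 2 groups of genes thus lay closer together within both limits than over all genes, and the respiratory chain genes remained the lower of the 2. Length and abundance were not matched within these limits.

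**Figure D3:**
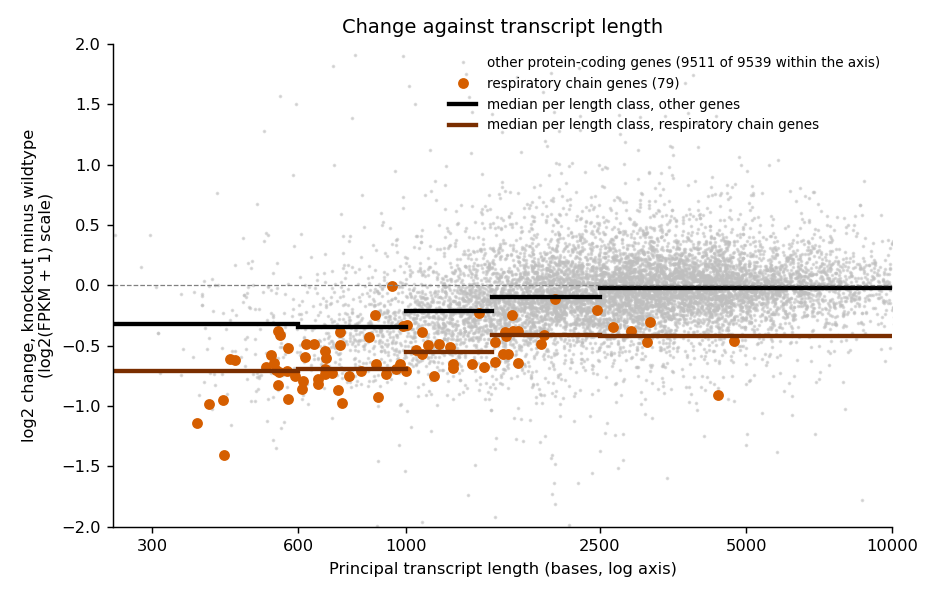
Log2 change (knockout minus wildtype) against principal transcript length (log axis) for the 79 tested respiratory chain genes and for other protein-coding genes. Horizontal bars are medians in 5 length classes: they run from -0.71 to -0.42 for the respiratory chain genes and from -0.32 to -0.02 for the others, shortest and longest class in each case.

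Removing the trend of each library with principal transcript length left 26 of the 79 genes lower and none higher, beside 4.91% of all genes lower and 4.70% higher. The median log2 change was -0.29, beside 0.01 for all genes, and 74 of the 79 changes were negative. The 26 were 10 genes of complex I, 2 of complex II, 3 of complex III, 3 of complex IV, 7 of complex V and Cycs. Their medians by complex were -0.29, -0.30, -0.24, -0.22 and -0.29 for complexes I to V, so the complexes lay closer together than before the removal. The count varied with the libraries used: without wildtype 1 it was 4, without wildtype 3, 10 or 12 it was 8, 12 or 9, and without knockout 3, 9, 10 or 11 it was 9, 21, 22 or 18. Without knockout 3 and knockout 11 together it was 7. Lower calls over all genes also varied, from 473 with all libraries to 86, 210, 171 and 219 without wildtype 1, 3, 10 and 12, to 179, 468, 411 and 350 without knockout 3, 9, 10 and 11, and to 184 without knockouts 3 and 11. The median of the 79 genes stayed between -0.33 and -0.24 in the 8 refits that left out a single library.

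Only 4 of the genes passed as lower in each of those 8 refits: Atp5e, Ndufa5, Ndufb2 and Uqcrfs1. Over the refits, the log2 change lay between -0.95 and -0.82 for Atp5e, between -0.62 and -0.54 for Ndufa5 and between -0.47 and -0.42 for Uqcrfs1. Cox6c, Ndufa9 and Ndufs4 passed in 7 of 8. The value of Ndufb2 rests on which transcript is taken as its main one. With its longest principal transcript of 4371 bases its change after the removal was -0.89, and with the shortest, of 455 bases, it was -0.43 (limma adjusted p = 0.0266). For Atp5g1, with 4715 or 596 bases, the change was -0.44 or -0.05, and neither passed. With the longest annotated transcript of every gene as its length, 42 of the 79 passed as lower and none as higher (median -0.36), beside 5.76% and 5.08% of all genes. For Atp5l the longest transcript has 6310 bases against 544 bases of the principal form.

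The 4 knockout libraries did not lie equally low. As deposited, the median deviation of the 79 genes from the wildtype mean was -0.80 in knockout 3, -0.69 in knockout 9, -0.47 in knockout 10 and -0.50 in knockout 11. In the wildtype libraries it was 0.07, -0.03, -0.10 and 0.04. Other protein-coding genes of up to 1000 bases stood in nearly the same order, at -0.44, -0.39, -0.30 and -0.28. After removal of the length trend these other genes lay between 0.02 and 0.04 in the knockout libraries, and the respiratory chain genes at -0.37, -0.28, -0.21 and -0.23. Every knockout library was thus below every wildtype library on both scales. The 2 libraries high in S100a8 and S100a9, knockout 3 and knockout 11, were the lowest and the second highest of the 4 after the removal. The 4 genes of complex II stood lower than the other complexes in knockout 11, at -0.63 as deposited and -0.41 after removal, where complexes I, III, IV and V lay between -0.52 and -0.44 as deposited and between -0.23 and -0.15 after it. Whether complexes differed from each other was not tested.

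**Figure D4:**
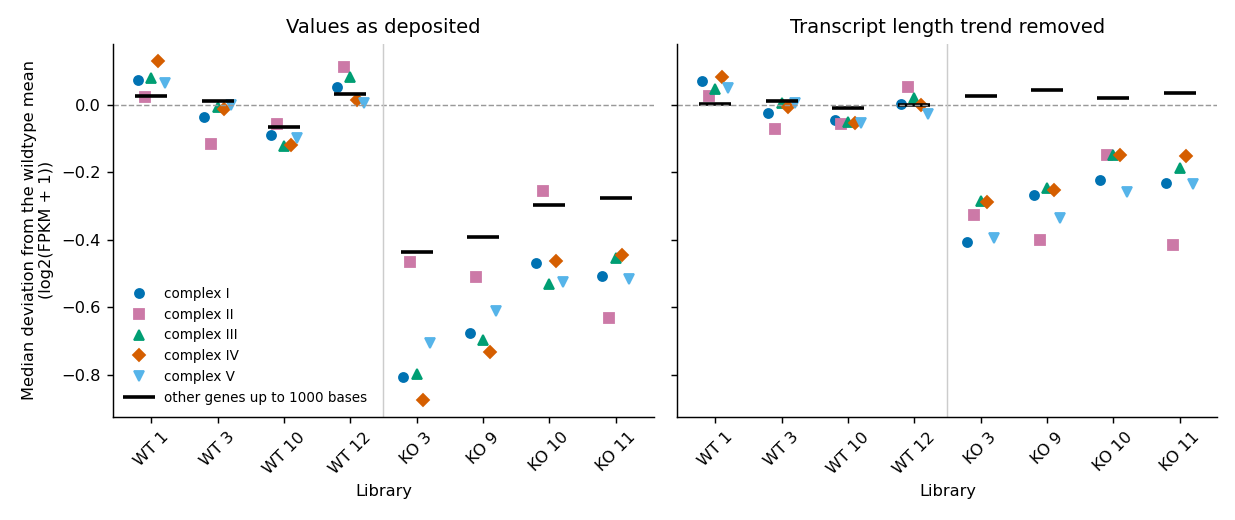
Median deviation from the wildtype mean (log2(FPKM + 1)) of the genes of each complex in each library, with values as deposited (left) and with the length trend removed (right). Black bars are other protein-coding genes of up to 1000 bases: they fall to between -0.44 and -0.28 in the knockout libraries on the left and lie near 0 on the right.

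Of the 13 subunits of the same complexes that are encoded by the mitochondrial genome, none passed as lower and 2 passed as higher: mt-Co1, the catalytic subunit of complex IV (log2 change 0.49, limma adjusted p = 0.0446), and mt-Nd5, of the membrane arm of complex I (0.53, limma adjusted p = 0.0385). The median of the 13 was 0.23. Of all tested genes, 11.7% passed as lower and 2.7% as higher. For 3 of them the change was negative without passing, the lowest being mt-Nd3 (-0.53, limma adjusted p = 0.114). The calls for mt-Co1 and mt-Nd5 were lost when single libraries were left out, in 7 and 6 of the 8 cases. mt-Co1 gave 17696, 15697, 17063 and 16591 FPKM in wildtype and 20546, 26573, 25459 and 21734 FPKM in knockout, without overlap. Once the length trend was removed, 7 of the 13 were higher, with a median of 0.60, beside 4.70% of all genes that were higher. The move of the median from 0.23 to 0.60 came with the removal. That trend was fitted over 9624 genes, and the 13 transcripts have 204 to 1824 bases. Whether the trend holds for mitochondrial transcripts was not tested. The mitochondrial transcripts differed from library to library: their median deviation from the wildtype mean was 0.06, 0.63, 0.35 and -0.12 in the knockout libraries, as deposited.

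Genes that serve the chain without being part of it were also counted. Of 46 assembly factors, which build the complexes, 13 were lower and none higher (median -0.30), beside 11.7% and 2.7% of all tested genes. They included Fmc1, a factor for ATP synthase (-0.96, limma adjusted p = 0.0045), Uqcc2, a factor for complex III (-0.71, limma adjusted p = 0.00305), and Cox16, a factor for complex IV (-0.67, limma adjusted p = 0.0037). Once the length trend was removed, 4 were lower and 1 higher, beside 4.91% of all genes lower and 4.70% higher. Among 14 genes of the citric acid cycle 2 were lower, Idh2 (-0.65, limma adjusted p = 0.00398) and Idh3b (-0.55, limma adjusted p = 0.0217), with a median of -0.11 for the list, beside the 11.7% of all tested genes that were lower. The call for Idh3b was lost without wildtype 1, 10 or 12 or knockout 11. Of 13 genes of coenzyme Q synthesis only Coq3 was lower (-0.31, limma adjusted p = 0.0492), and this was lost in 6 of 8 refits without a single library. The background of lower calls is the same 11.7% here.

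Of 14 tested regulators of respiratory genes, most of them transcription factors and coactivators, 1 was lower: Sirt3, a mitochondrial deacetylase (-0.59, limma adjusted p = 0.0148, and 0.0529 without wildtype 1), against the background of 11.7%. Ppargc1a, the coactivator of mitochondrial biogenesis, gave 1.3, 1.02, 1.27 and 1.74 FPKM in wildtype and 1.64, 0.709, 1.52 and 1.74 FPKM in knockout (log2 change 0.03, SE 0.16, limma adjusted p = 0.93). Nrf1, Gabpa, Esrra and Yy1, transcription factors of respiratory gene promoters, had log2 changes of 0.02, 0.12, -0.08 and -0.17, and none passed. Tfam, which packages and transcribes mitochondrial DNA, had a log2 change of -0.45 (SE 0.16, limma adjusted p = 0.0862).

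Sets of cytosolic ribosomal, mitochondrial ribosomal and proteasome genes moved in the same direction. Their median principal transcripts had 882, 1316 and 1490 bases, and their median wildtype levels were 535, 32.1 and 52.0 FPKM, in that order. The respiratory chain genes had 875 bases and 242 FPKM, so only the cytosolic ribosomal set was near them in length. Of 78 cytosolic ribosomal protein genes 65 were lower (median -0.55), of 77 mitochondrial ribosomal protein genes 32 (median -0.31), and of 38 proteasome subunit genes 14 (median -0.31). None of the genes in these sets passed as higher, and of all tested genes 11.7% were lower and 2.7% higher. Without the length trend the counts of lower genes were 20, 11 and 4, with medians of -0.21, -0.08 and -0.10. Higher genes then numbered 0, 2 and 1 in the same order, beside 4.91% of all genes lower and 4.7% higher. On that scale the respiratory chain genes had 26 of 79 lower and a median of -0.29. Whether the respiratory chain genes differed from the cytosolic ribosomal protein genes, the nearest of these sets, was not tested.

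Promoter windows were read to see what the genes that moved together share in sequence. RefSeq promoter windows (build GRCm38.p6, 250 bases before to 50 bases after the start) were matched by symbol for 64 of the 79 tested genes and for 7673 tested protein-coding genes in all. They were searched on both strands for 6 short words: GCATGCGC of NRF1, CCGGAAGT of the ETS factor GABP, AAGATGGC of YY1, AAGGTCA of the oestrogen-related receptors (ERR), and GTAAACA and CAAAACA of FoxO factors. The 5 genes printed below are examples picked for a word or a change. Genes without any of the 6 words also fell strongly, as given further below. The 250 bases before the start are printed for 5 genes because Atp5k and Atp5l hold the NRF1 word and fell strongly, Atp5l and Atp5g3 hold the ERR word, Cox7a2 has the only GTAAACA word found, and Ndufa10, with none of the 6, had the smallest change of complex I. They lie at chr5:108434400-108434649, chr9:44920743-44920992, chr2:73911327-73911576, chr9:79759854-79760103 and chr1:92473759-92474008 in that order, all on the minus strand, and are given 5′ to 3′ toward the gene with the words in capitals.
Atp5k: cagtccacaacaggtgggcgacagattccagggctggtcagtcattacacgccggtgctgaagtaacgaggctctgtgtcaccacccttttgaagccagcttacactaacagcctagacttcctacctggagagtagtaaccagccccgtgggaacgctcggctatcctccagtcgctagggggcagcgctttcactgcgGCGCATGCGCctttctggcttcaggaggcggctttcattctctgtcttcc
Atp5l: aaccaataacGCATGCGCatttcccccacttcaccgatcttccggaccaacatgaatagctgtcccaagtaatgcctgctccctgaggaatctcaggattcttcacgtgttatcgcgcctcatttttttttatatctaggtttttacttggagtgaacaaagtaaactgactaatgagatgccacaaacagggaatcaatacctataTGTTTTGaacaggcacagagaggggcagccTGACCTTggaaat
Atp5g3: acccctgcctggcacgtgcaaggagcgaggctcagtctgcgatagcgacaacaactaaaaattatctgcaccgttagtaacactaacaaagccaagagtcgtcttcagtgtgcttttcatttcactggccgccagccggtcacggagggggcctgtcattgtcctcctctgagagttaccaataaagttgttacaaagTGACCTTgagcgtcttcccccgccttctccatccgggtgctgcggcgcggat
Cox7a2: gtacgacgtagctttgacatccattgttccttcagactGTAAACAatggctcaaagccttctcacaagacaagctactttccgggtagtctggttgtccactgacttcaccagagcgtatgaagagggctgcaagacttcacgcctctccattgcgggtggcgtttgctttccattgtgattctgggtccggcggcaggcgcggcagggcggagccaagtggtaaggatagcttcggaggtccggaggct
Ndufa10: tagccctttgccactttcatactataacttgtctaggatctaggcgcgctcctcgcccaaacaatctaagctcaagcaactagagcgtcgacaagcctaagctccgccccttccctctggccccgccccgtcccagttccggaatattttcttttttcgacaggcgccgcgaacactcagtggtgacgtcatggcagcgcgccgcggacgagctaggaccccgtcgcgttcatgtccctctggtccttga

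In the window of Atp5k the capitals hold the NRF1 word on both strands, overlapping, from 50 bases before the start; its ERR word lies after the start and is not in the printed stretch. In Atp5l the capitals are, in order, the NRF1 word, the CAAAACA word on the opposite strand and the ERR word on the opposite strand, which begins 13 bases before the start. In Atp5g3 they mark the ERR word on the opposite strand, and in Cox7a2 the GTAAACA word, 212 bases before the start. All starts here are those of RefSeq. They lay 49, 0, 1, 25 and 102 bases from the starts of the principal transcripts, in the order printed. For Atp5k, Cox7a2 and Ndufa10 the printed stretch therefore reaches into the annotated gene, and in Atp5k this part holds nearly all of the capitals.

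Of the FoxO words in the 64 windows, GTAAACA was in 1 (1.56%, beside 2.62% of all 7673 windows) and CAAAACA in 3 (4.69%, beside 4.38%). The NRF1 word was in 11 windows (17.2%, beside 6.0%), the ERR word in 8 (12.5%, beside 3.39%), the YY1 word in 8 (12.5%, beside 5.40%) and the ETS word in 5 (7.81%, beside 9.74%). Median base composition was 57.3% G and C in these windows and 61.0% in all windows. The 8 genes with the ERR word were Ndufb2, Ndufb4, Ndufs5, Sdhd, Atp5e, Atp5g3, Atp5k and Atp5l. All 8 were lower, with a median log2 change of -0.85, beside -0.59 for the 56 without it, of which 47 were lower. These medians use the values as deposited, and Atp5k, Atp5e and Atp5l have short transcripts of 371, 421 and 544 bases. The window of Ndufs5 was placed on a start 1860 bases from that of its principal transcript. Of 803 windows of other genes that passed as lower, 3.74% held the ERR word. Whether the word goes with the change was not tested. The 11 genes with the NRF1 word had a median of -0.52 with 8 lower, beside -0.64 for the 53 without it. Ndufa8, Uqcrc1 and Atp5g2 hold the NRF1 word and did not pass (log2 changes of -0.24, -0.24 and -0.38). None of the 6 words was in the windows of Ndufa1, Ndufa5, Cox7a1 and Ndufa4. Their log2 changes were -0.95, -0.92, -0.98 and -0.86. A word is a run of letters in a short window and shows nothing about binding.

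The reads of some of these genes may not have been assigned to them alone. Only the annotation was examined for this, not the reads. Exons of 28 of the 85 genes overlap exons of another annotated gene, on the opposite strand for 25 and on the same strand for 5, and the sources used here do not say whether counting used strand. Overlaps include Atp5j with Gabpa, Ndufb2 with Braf, Cox6c with Vps13b and Ndufa2 with Tmco6. Many small respiratory chain genes also have processed pseudogenes of nearly the same sequence, and how shared reads were divided is not given either. Their values are uncertain to that extent.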

How the data were processed

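Liver RNA of 4 wildtype and 4 hepatic FOXO1 knockout mice was sequenced. The submitters' processing notes name TopHat2 2.1.0, HTSeq, Cufflinks 2.2.1 and build mm10. The deposited values are FPKM per gene, a unit inferred from the values, and the sources used here do not give total reads per library. Gene names, transcript lengths and APPRIS principal transcripts came from GENCODE M21. Values were transformed to log2(FPKM + 1) and genes averaging 1 FPKM or more were tested with limma 3.58.1 in R 4.3.3 (genotype as the only term, variance trend, two-sided, Benjamini-Hochberg adjustment over all genes tested, threshold 0.05). Length trends were removed in each library by a symmetric loess (span 0.5) of each gene's deviation from its mean on log10 transcript length, and 9624 genes with a principal transcript were then tested. The script was tested on simulated data. Labels do not say how the mice were bred or whether libraries are separate extractions, so the spread behind each p-value is that of these libraries and may be technical. Within each complex, up to 4 tested genes with the smallest adjusted p are named, as are all genes of complex II, Cycs, Cyc1, isoform pairs, the longest and shortest, genes with an outlying library or with a 0 in some libraries of a group, the 3 with the largest change after removal of the length trend, up to 3 passing genes of each comparison list, and the regulators; other genes named were chosen after their values were seen. The genes, lists and tests were chosen with earlier results of these data known, and principal transcript lengths were chosen after seeing the data. Other scalings, filters, pseudocounts, length measures and left-out libraries were tried.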

Additional observations from a re-analysis of the deposited data

Results flagged for a closer look

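In 4 of 158 groups of 4 libraries, a single library stood apart from the other 3 by more than Dixon's 95% limit for 4 samples. Chance flags about 5% of such groups. Cox5a stood at 283 FPKM in wildtype 10, the lowest of its group, where the other 3 lay between 328 and 332 FPKM. Ndufs4 stood at 58.2 FPKM in wildtype 10, with the others between 64.5 and 65.0 FPKM. Sdhd stood at 130 FPKM in wildtype 10, with the others between 137 and 139 FPKM. Cox8a stood at 436 FPKM in knockout 11, the highest of its group, with the others between 357 and 369 FPKM. Without wildtype 10 or knockout 11 the changes of the first 3 genes kept their direction and their calls, and Cox8a lost its call without wildtype 10 and kept it without knockout 11. Wildtype 10 was also the wildtype library in which the median of the respiratory chain genes (-0.10) and of other genes of up to 1000 bases (-0.07) was lowest.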

How the results depend on the processing

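The fall of the 79 genes kept its negative median under all 39 alternatives, and no alternative except 1 gave a gene as higher. The count of 66 lower genes was 62 to 67 with other pseudocounts, filters and variance models, 33 at a threshold of 0.01 and 70 at 0.10. For complexes I, III, IV and V the threshold of 0.01 gave 15, 3, 5 and 8. Quantile normalization gave 38 in all (18, 5, 5 and 8 in complexes I, III, IV and V; median -0.33), and median-ratio scaling 7 in complex IV. Removal of the GC trend gave 55, beside 813 lower of all 10149 genes tested. With the length trend removed, the count was 42 for the longest transcript (5 in complex III, 4 in IV; median -0.36), 37 with a running median (16, 5 and 4 in complexes I, III and IV; -0.33) and 48 for merged exons (6 in complex IV; -0.40). Length and GC together gave 32 (16, 1, 3, 3 and 8 in complexes I to V; -0.32). Over all 10149 genes tested, lower calls were 585, 564, 634 and 533 in the order of these 4 settings. Chosen after seeing the data, the principal transcript gave 26 (10, 3, 3 and 7 in complexes I, III, IV and V; -0.29), its running median 29 (11, 4, 4 and 7; -0.28) and the shortest principal transcript 35 (18, 4, 3 and 7; -0.28). Without knockouts 3 and 11 and with the principal length trend removed the count was 7 (3, 0, 1, 1 and 2 in complexes I to V; -0.24). Over all 9624 genes tested, lower calls were 473, 473, 500 and 184 in the order of these last 4 settings.

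Leaving out a single library gave 45 to 66 lower genes (median -0.65 to -0.53), while lower calls over all 10250 tested genes ran from 599 to 1294. By complex this was 21 to 31, 2 to 3, 6 to 8, 7 to 11 and 8 to 14 for complexes I to V. With the principal length trend also removed it gave 4, 8, 12 and 9 without wildtype 1, 3, 10 and 12 and 9, 21, 22 and 18 without knockout 3, 9, 10 and 11, in all 4 to 22 (medians in that order -0.262, -0.285, -0.30, -0.28, -0.239, -0.289, -0.33 and -0.28), by complex 2 to 9, 0 to 1, 1 to 3, 0 to 3 and 1 to 5, and 0 to 1 higher. The 1 was Ndufa4l2 without knockout 9 (log2 change 0.51, limma adjusted p = 0.025). The cause of these differences was not tested.

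Of named genes that passed, Cox8a turned positive with the length trend removed: 0.0022 for the longest transcript, 0.0682 for the principal one, 0.0579 with its running median and 0.0259 for the shortest principal one. With single libraries left out as well it was 0.0966, 0.0474, 0.061, 0.0679, 0.0526, 0.0696, 0.107 and 0.0436 in the same order, and 0.0079 without knockouts 3 and 11. Cox6a1 was 0.0191 without knockout 3 and 0.0644 without knockouts 3 and 11, both with the principal trend removed. In all, 2179 values of 56 named genes were recomputed: 1646 kept direction and side of the threshold, 53 changed sign and passed in neither fit, 461 lost the call, 2 gained it and 17 changed sign with a call on either side.

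Wildtype and knockout share the numbers 3 and 10 only, and the deviations of those pairs correlated at -0.01 and 0.02. Pairs with unlike numbers ran from -0.11 to 0.15. With so few libraries these values cannot tell whether samples with the same number belong together. A replicate block on these numbers left 1 residual degree of freedom and called 0 of the 79 genes (0 in each complex), and also 0 with the length trend removed (median -0.31, Cox8a 0.0153), beside 1 gene lower and 1 higher of all tested.

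Depth is known only relative to wildtype 1, so no counting error is given. Total RNA per cell is not given here, so a shift of all transcripts cannot be seen in FPKM.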
